A study of Mus musculus with 2 samples.

Results

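The TNF and TNF receptor superfamily was represented by 38 genes, out of 19760 named genes that had a value on the array. A gene was a member when its platform symbol was Tnf or started with Tnfsf, Tnfrsf or Tnfaip and a digit, and when the row carried that 1 symbol alone. The 38 were 10 ligands (Tnf and 9 Tnfsf genes), 20 receptors (Tnfrsf genes) and 8 genes for TNF-induced proteins (Tnfaip genes). Where a symbol had several rows the brightest was used, which concerned Tnfrsf19 only, and 2 rows annotated to several symbols were left out. The cells were Lgr5-GFP-positive intestinal stem cells, sorted from the small intestine of 8-week-old mice that were either circPan3-/- or circPan3+/+. circPan3 is a circular RNA spliced from exons of Pan3. Both groups carried the Lgr5GFP-CreERT2 allele, in which the Lgr5 locus drives a green fluorescent protein joined to an inducible recombinase, so that the sort follows Lgr5 activity. Total RNA was hybridised to 1 Affymetrix Clariom D mouse array per genotype, and the sources used here do not say whether a sample was 1 mouse or several mice pooled.

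Ligands of the TNF family are trimeric membrane proteins, many of which can be shed, and they act by clustering receptors that share cysteine-rich repeats outside the cell. Receptors with a cytoplasmic death domain can recruit TRADD or FADD and can lead to caspase-8 activation. Many of the others bind TRAF adaptors, and receptors of both these kinds can activate NF-kB. In the intestine, TNF is made chiefly by myeloid and lymphoid cells and acts on epithelial and stromal cells through the receptors encoded by Tnfrsf1a and Tnfrsf1b. Tnfaip symbols stand for TNF-induced protein, and these genes do not form 1 protein family. Tnfaip8l1, Tnfaip8l2 and Tnfaip8l3 are named for likeness to Tnfaip8 and not for induction. The group name TNF-induced proteins follows the symbol alone, and a response to TNF was not tested. Tnfaip3 encodes A20, which edits ubiquitin on receptor complexes and restrains NF-kB.

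Since each genotype was measured once, replicate spread is unknown and the differences carry neither errors nor p-values. They describe 2 arrays. Values are RMA signals, read as log2, and differences are circPan3-/- minus circPan3+/+. Over all named genes the median difference was 0.28, so a difference is also given relative to that median where it matters. The 95th percentile of the 5222 negative control rows was 5.56 for the circPan3-/- array and 5.06 for the circPan3+/+ array. This value is called the control limit below. The 23 background probe rows, which are binned by GC content, spanned 0.54 to 6.35 in circPan3-/- cells and 0.45 to 6.01 in circPan3+/+ cells, so even a level above the control limit can lie within the range of background probes. Exact ties between rows made up 4.20% of the circPan3-/- values and 69.1% of the circPan3+/+ values. Among the members, 0 of 38 circPan3-/- values and 21 of 38 circPan3+/+ values were tied. Ties this unequal may mean that the 2 arrays were not processed alike, which would bear on every difference given here, and this was not tested. Epithelial markers were above the control limit for 8 of 8 genes in circPan3-/- cells and 7 of 8 in circPan3+/+ cells. Lgr5, whose locus the sort relied on, had a signal of 7.02 in circPan3-/- cells and 10.91 in circPan3+/+ cells, both above the limits. Of the 11 stem cell markers measured, 7 were above the limit in circPan3-/- cells and 4 in circPan3+/+ cells. At least 2-fold higher in circPan3-/- cells were 7 of the 11 (7.47% of all named genes). At least 2-fold lower were 2, Lgr5 and Olfm4 (2.17%). When a value under its limit was set to that limit, 3 were at least 2-fold higher (2.73%) and the same 2 lower (0.395%).

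The signal of 29 of the 38 members (76.3%) lay under the control limit on both arrays, as did that of 77.6% of all named genes, so the superfamily was detected about as often as genes in general. On the circPan3-/- array 5 members were above it, against 8 on the circPan3+/+ array; of all named genes, 18.3% and 19.4% were above it on the same 2 arrays. The 4 members above the limit on both were Tnf, Tnfrsf12a, Tnfaip1 and Tnfaip3. Tnfrsf14 was above it in circPan3-/- cells alone, and Tnfrsf1a, Tnfrsf1b, Tnfrsf10b and Tnfaip8l2 in circPan3+/+ cells alone. Tnfaip3 was the single member brighter than every background row on both arrays. Tnfrsf1b, Tnfrsf12a and Tnfaip8l2 passed the highest background row in circPan3+/+ cells only. Against a stricter limit, the 99th percentile of the negative control rows (8.14 for circPan3-/- and 8.07 for circPan3+/+), 0 of 38 members were above it on either array, and of all named genes 2.54% were. The levels are shown in the plot of the members on the 2 arrays.

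**Figure D1:**
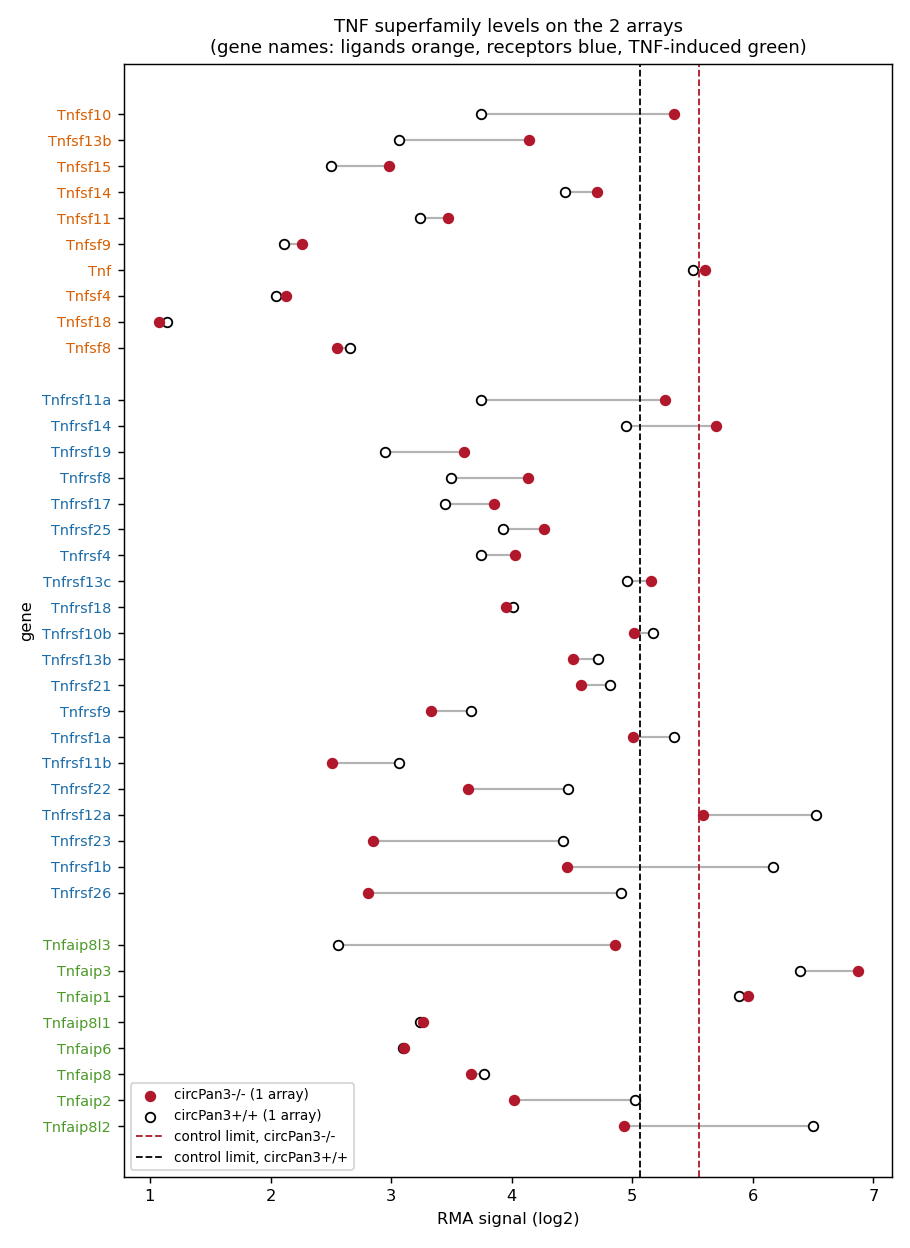
RMA signal (log2, x axis) of the 38 members in circPan3-/- cells (filled) and circPan3+/+ cells (open), 1 array each, sorted by difference within ligands, receptors and TNF-induced proteins. Dashed lines mark the control limits of 5.56 (circPan3-/-) and 5.06 (circPan3+/+), under which 29 members lay on both arrays.

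Of the 38 members, 4 were at least 2-fold higher in circPan3-/- cells, 5 at least 2-fold lower and 29 neither. The 4 higher members were Tnfaip8l3, Tnfsf10, Tnfrsf11a and Tnfsf13b, a share of 10.5%, against 7.47% of all named genes. The 5 lower members were Tnfrsf26, Tnfrsf1b, Tnfrsf23, Tnfaip8l2 and Tnfaip2, a share of 13.2%, against 2.17% of all named genes. Rows labelled as negative controls were at least 2-fold higher in 22.1% and at least 2-fold lower in 8.08% of cases. Differences of this size were thus common between the 2 arrays among these rows. The sources used here do not say how many probes make up a control row or a gene row. Nor do they say what a control row targets, so whether it is free of transcript was not tested. At mean signals of 3 to 4, where 14 members lay, 33.2% of control rows and 5.27% of named genes were at least 2-fold higher, against 2 of the 14 members, and 7.39% of control rows and 2.71% of named genes were at least 2-fold lower, also against 2 of the 14. Relative to the median of all named genes, 3 members were at least 2-fold higher (3.58% of all named genes) and 7 at least 2-fold lower (3.54%), Tnfrsf22 and Tnfrsf12a having joined the lower ones and Tnfsf13b having left the higher ones. After loess the counts were 3 higher (2.71%) and 7 lower (3.88%), and after quantile normalization 3 higher (3.38%) and 7 lower (3.52%). Among the 35 members whose mean signal reached the median over all array rows, 4 were higher (9.68% of named genes so filtered) and 5 lower (2.74%). When a value under its control limit was replaced by that limit, so that a fold becomes a lower bound, 0 members were at least 2-fold higher (2.73% of all named genes) and 0 at least 2-fold lower (0.395%).

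**Figure D2:**
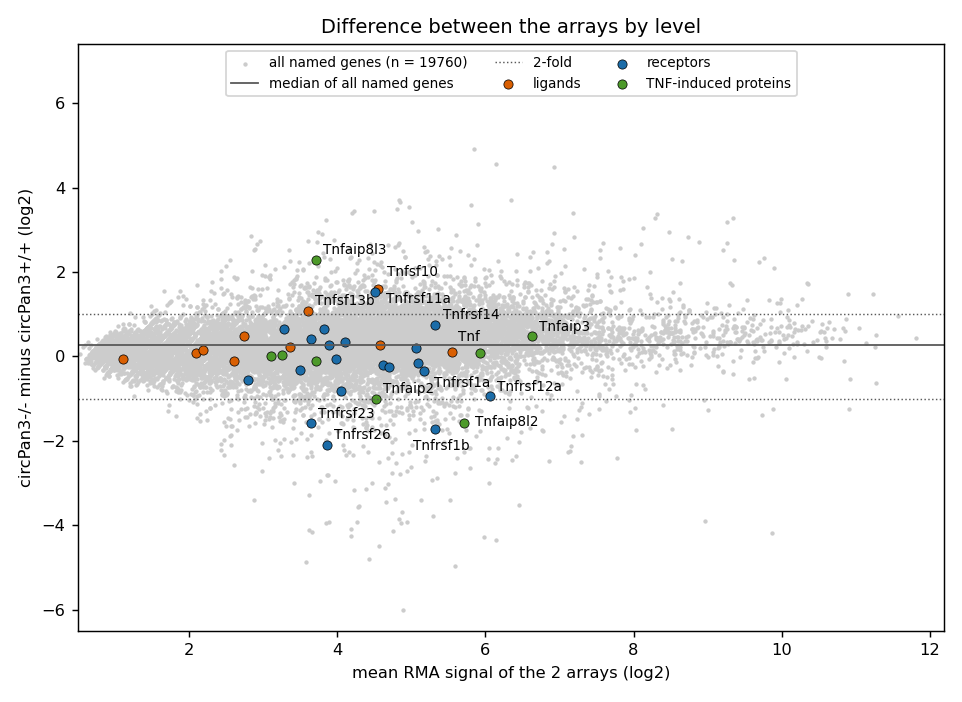
Difference between the arrays (circPan3-/- minus circPan3+/+, log2, y axis) against the mean signal of both (log2, x axis) for 19760 named genes (grey) and the 38 members, coloured by role. The solid line is the median of all named genes, 0.28, and dotted lines mark 2-fold; 4 members lie above the upper and 5 below the lower dotted line.

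Among the ligands, Tnf, the cytokine that gives the family its name, was the single one above the control limit. Its signal was 5.61 in circPan3-/- cells and 5.50 in circPan3+/+ cells. The difference was 0.10, or -0.18 relative to the median of all named genes, so its direction depended on the scaling. Both Tnf values were under the highest background row. Tnfsf10 encodes TRAIL, which can trigger cell death through a death domain receptor. Its signal was 5.35 in circPan3-/- cells and 3.75 in circPan3+/+ cells. These differ by 1.603, but each lay under its limit, so no fold is given. Tnfsf13b, which encodes the B cell survival factor BAFF, had 4.14 in circPan3-/- cells and 3.07 in circPan3+/+ cells, also under the limits. The circPan3+/+ value of Tnfsf10 stood in 510 rows of the table and that of Tnfsf13b in 400.

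The other 7 ligands differed by -0.11 to 0.47 and lay under the limits on both arrays. They included Tnfsf15, which encodes TL1A, the ligand of the receptor from Tnfrsf25, with 2.98 in circPan3-/- cells and 2.51 in circPan3+/+ cells. Tnfsf11, which encodes RANKL, the stromal signal for M cell formation, had 3.47 in circPan3-/- cells and 3.24 in circPan3+/+ cells. Tnfsf14, the gene of LIGHT, had 4.71 in circPan3-/- cells and 4.44 in circPan3+/+ cells. The ligands of T cell costimulation, Tnfsf4, Tnfsf8, Tnfsf9 and Tnfsf18, had signals between 1.07 and 2.55 in circPan3-/- cells and between 1.14 and 2.66 in circPan3+/+ cells. These 4 levels lay below the median of all named genes on each array, 3.96 for circPan3-/- and 3.71 for circPan3+/+.

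Both receptors for TNF had lower signals in circPan3-/- cells, and both were above the control limit in circPan3+/+ cells alone. Tnfrsf1b encodes TNFR2, which is found mainly on leukocytes and endothelial cells and lacks a death domain. Its signal was 4.46 in circPan3-/- cells and 6.17 in circPan3+/+ cells, a difference of -1.71. Because the circPan3-/- value lay under its limit, this is a fold of at least 1.53. In the ranking of all named genes Tnfrsf1b stood at percentile 60.7 in circPan3-/- cells and at 92.7 in circPan3+/+ cells. Tnfrsf1a encodes TNFR1, the widely expressed death domain receptor. It had 5.01 in circPan3-/- cells and 5.35 in circPan3+/+ cells, a difference of -0.34. No fold is given, since the circPan3-/- limit itself exceeds the circPan3+/+ value. With bulk RNA, fewer cells of a type and less RNA per cell cannot be told apart.

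Myeloid markers were lower in circPan3-/- cells, as was Tnfrsf1b. Of 16 myeloid markers, 11 were at least 2-fold lower in circPan3-/- cells and 0 at least 2-fold higher, with a median difference of -1.78. With bounds at the control limits, 5 were at least 2-fold lower. Of all named genes, 2.17% were at least 2-fold lower as deposited and 0.395% with bounds. Above the control limit were 1 of 16 in circPan3-/- cells (Lyz2, which Paneth cells can also express) and 13 of 16 in circPan3+/+ cells. Without Lyz2 the summed linear signal of the list was 271 in circPan3-/- cells and 1053 in circPan3+/+ cells. The monocyte and macrophage gene Cd68 had 4.21 in circPan3-/- cells and 6.97 in circPan3+/+ cells, and Fcer1g, the gene of an Fc receptor chain, had 4.46 in circPan3-/- cells and 7.11 in circPan3+/+ cells. Of 10 endothelial markers, 2 were at least 2-fold lower, Emcn and Kdr, and with bounds 1, Emcn. The summed linear signal of this list was 322 in circPan3-/- cells and 596 in circPan3+/+ cells. Of 14 T cell and NK cell markers 3 were at least 2-fold lower (1 with bounds), and of 9 B cell and plasma cell markers 0 were. Of other cell types, 8 of 8 goblet cell markers and 5 of 6 Paneth cell markers were at least 2-fold higher in circPan3-/- cells, with medians of 2.46 and 2.29. The sixth Paneth cell marker, Reg3g, was 2.37-fold lower. Of 8 epithelial markers 4 were at least 2-fold higher and 0 lower, with a median of 0.92. Of 8 tuft cell markers 3 were higher and 0 lower, but these 3, Dclk1, Pou2f3 and Rgs13, lay under the limits on both arrays. Of 11 mesenchymal markers 2 were higher and 3 lower. As deposited, 7.47% of all named genes were at least 2-fold higher. With bounds, 7 goblet, 5 Paneth, 4 epithelial, 0 tuft and 1 mesenchymal marker were at least 2-fold higher (2.73% of all named genes). Also with bounds, 1 Paneth cell marker and 2 mesenchymal markers were at least 2-fold lower. The part of these cells in the lower Tnfrsf1b signal was not tested.

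Tnfrsf12a encodes Fn14, a small receptor without a death domain that is induced in injured epithelium and binds TWEAK. It was above the control limit on both arrays, with 5.59 in circPan3-/- cells and 6.53 in circPan3+/+ cells, which is -0.94 on the log2 scale and 1.91-fold lower. Relative to the median of all named genes the difference was -1.22, past 2-fold. Tnfrsf14 encodes HVEM, a receptor for LIGHT that also contacts the immunoglobulin-family protein BTLA, and epithelial cells express it. It went the other way, with 5.70 in circPan3-/- cells and 4.95 in circPan3+/+ cells, a fold of at least 1.56. The difference of 0.75 became 0.47 relative to the median of all named genes and 0.27 after loess. Both Tnfrsf14 values were under the highest background row.

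The other Tnfrsf genes for receptors with a death domain were less than 2-fold apart. Tnfrsf10b, the mouse receptor for TRAIL that signals death, had 5.02 in circPan3-/- cells and 5.17 in circPan3+/+ cells. Tnfrsf21, which encodes DR6, had 4.57 in circPan3-/- cells and 4.82 in circPan3+/+ cells, and Tnfrsf25, which encodes DR3, had 4.27 in circPan3-/- cells and 3.93 in circPan3+/+ cells. Together with Tnfrsf1a, the 4 death domain receptors with Tnfrsf symbols differed by -0.34 to 0.34. In circPan3-/- cells 0 of the 4 were above the limit (18.3% of all named genes), and in circPan3+/+ cells 2 of 4 (19.4%).

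The 3 genes of the mouse decoy receptor cluster were all lower in circPan3-/- cells, at levels under the control limits. Tnfrsf26, Tnfrsf22 and Tnfrsf23 follow one another among the protein-coding genes of chromosome 7 in the RefSeq order, and the products of Tnfrsf22 and Tnfrsf23 bind TRAIL without passing on a signal. Tnfrsf26 had 2.81 in circPan3-/- cells and 4.91 in circPan3+/+ cells, a difference of -2.09, the lowest among the members. Tnfrsf23 had 2.85 in circPan3-/- cells and 4.43 in circPan3+/+ cells. Tnfrsf22 had 3.64 in circPan3-/- cells and 4.46 in circPan3+/+ cells. The differences of -1.58 for Tnfrsf23 and -0.83 for Tnfrsf22 are also given without a fold. The 3 genes are close paralogs and probes may not tell them apart, so their values may not be separate measurements. The other neighbouring members showed no such common direction: Tnfrsf1b and its neighbour Tnfrsf8 differed by -1.71 and 0.64, and Tnfrsf4 and Tnfrsf18 by 0.28 and -0.055.

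Tnfrsf11a, which encodes RANK, the receptor through which RANKL acts on epithelium, was higher in circPan3-/- cells, with 5.27 in circPan3-/- cells and 3.75 in circPan3+/+ cells, both under the limits. Its soluble decoy osteoprotegerin, from Tnfrsf11b, had 2.51 in circPan3-/- cells and 3.06 in circPan3+/+ cells. Tnfrsf19 encodes TROY, a Wnt-induced receptor of Lgr5 stem cells that lacks a known TNF family ligand. Its brighter row had 3.61 in circPan3-/- cells and 2.95 in circPan3+/+ cells, while its other row had 1.95 in circPan3-/- cells and 2.23 in circPan3+/+ cells, so the 2 rows of Tnfrsf19 differed in direction between the genotypes, all under the limits.

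The receptors known best from lymphocytes lay under the control limit. The T cell receptors for costimulation other than Tnfrsf14 and Tnfrsf25 were Tnfrsf4 (OX40), Tnfrsf8 (CD30), Tnfrsf9 (4-1BB) and Tnfrsf18 (GITR), which differed by -0.33 to 0.64. The 3 receptors of B cells and plasma cells for BAFF and APRIL, Tnfrsf13b, Tnfrsf13c and Tnfrsf17, differed by -0.21 to 0.40. All 7 were under the limits on both arrays. So were 11 of 14 T cell and NK cell markers and 5 of 9 B cell and plasma cell markers. Among all named genes, 77.6% were under both limits, so lying under them was common on these arrays.

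Receptors and ligands were then set side by side. The median difference was -0.18 over the 20 receptors and 0.18 over the 10 ligands, against 0.28 over all named genes. Below the median of all named genes stood 13 of 20 receptors and 7 of 10 ligands. At least 2-fold higher were 1 of 20 receptors and 2 of 10 ligands, against 7.47% of all named genes. At least 2-fold lower were 3 of 20 receptors and 0 of 10 ligands, against 2.17%. Above the control limit on the circPan3-/- array were 2 of 20 receptors and 1 of 10 ligands, against 18.3% of all named genes. On the circPan3+/+ array 4 of 20 receptors and 1 of 10 ligands were above it, against 19.4%. After centring on the median of all named genes the medians were -0.46 for receptors and -0.10 for ligands, after loess -0.59 and -0.035, and after quantile normalization -0.54 and -0.039, so the ligand median was below 0 under these 3 normalizations and above 0 as deposited. These are descriptions of 2 arrays, and the gap between receptors and ligands was not tested.

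**Figure D3:**
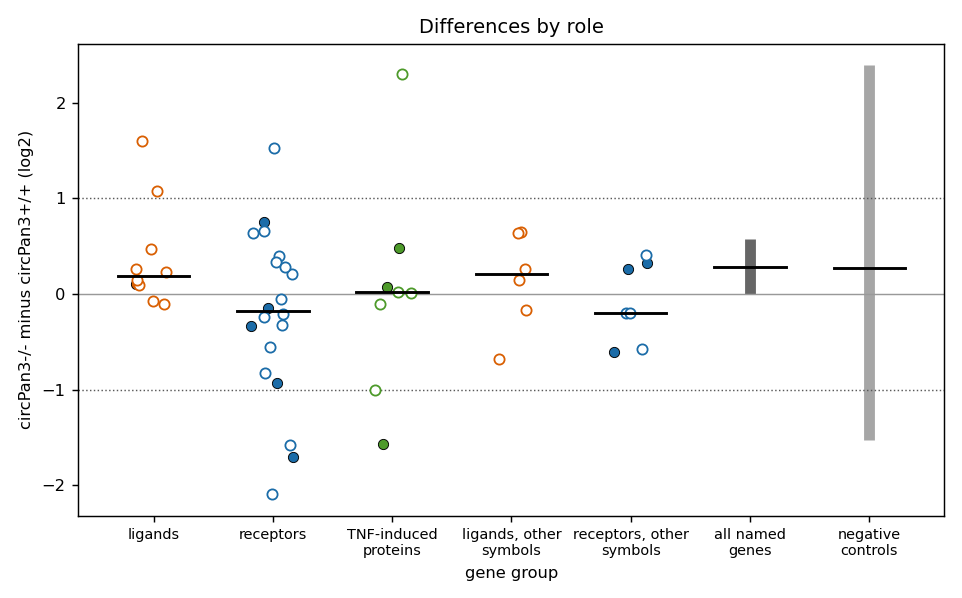
Difference between the arrays (circPan3-/- minus circPan3+/+, log2) for each gene by role, including superfamily members under other symbols; filled points were above the control limit on at least 1 array, and black bars are medians. Grey bars show the interquartile range of all named genes and the central 95% of negative control rows (-1.52 to 2.39). Below the range of the control rows lie 3 receptors and 1 Tnfaip gene, Tnfaip8l2.

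Of the genes of the superfamily with other symbols, 0 of 6 ligands and 0 of 7 receptors were at least 2-fold apart as deposited or relative to the median of all named genes. Ltb passed 2-fold lower after loess (-1.09) and quantile normalization (-1.03), and Ngfr after loess (-1.08). The 6 ligands were Lta, Ltb, Fasl, Cd40lg, Cd70 and Eda, which differed by -0.68 to 0.65, all under the limits. Of the 7 receptors measured, Fas, Ltbr and Ngfr were above the limit in circPan3+/+ cells alone. Fas and Ltbr had higher signals in circPan3-/- cells, but the limit of that array is the higher one, 5.56 against 5.06. Fas, the death receptor of Fas ligand, had 5.54 in circPan3-/- cells and 5.28 in circPan3+/+ cells, and Ltbr, the receptor of lymphotoxin, had 5.41 in circPan3-/- cells and 5.08 in circPan3+/+ cells. Ngfr, the neurotrophin receptor, had 4.97 in circPan3-/- cells and 5.57 in circPan3+/+ cells, at least 1.01-fold lower. Cd40, which binds CD40 ligand on antigen-presenting cells, had 3.68 in circPan3-/- cells and 4.25 in circPan3+/+ cells. The median was -0.20 over these receptors and 0.21 over these ligands.

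Among the 8 genes for TNF-induced proteins, the A20 gene Tnfaip3 had the clearest signal. It had 6.87 in circPan3-/- cells and 6.39 in circPan3+/+ cells, which is 1.39-fold higher, and stood at percentile 93.9 of named genes on both arrays. Its difference was 0.20 relative to the median of all named genes and -0.054 after loess, so its direction depended on the scaling. Tnfaip1, which encodes an adaptor of a ubiquitin ligase, had 5.96 in circPan3-/- cells and 5.89 in circPan3+/+ cells, which differ by 0.077 as deposited and by -0.20 relative to the median of all named genes. Tnfaip8l2 encodes TIPE2, a regulator of immune cell activation. It had 4.93 in circPan3-/- cells and 6.50 in circPan3+/+ cells, a difference of -1.57 and a fold of at least 1.93. It thus moved in the same direction as the myeloid markers given above, and their part in it was not tested.

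The other members of the TIPE family, which carry lipids between membranes, did not follow Tnfaip8l2. Tnfaip8l3 encodes TIPE3 and had the highest difference of all members, 2.29, with 4.85 in circPan3-/- cells and 2.56 in circPan3+/+ cells. Both values lay under the limits. Tnfaip8 and Tnfaip8l1 differed by -0.11 and 0.024. Tnfaip2, which encodes M-Sec, a protein of membrane nanotubes, had 4.02 in circPan3-/- cells and 5.02 in circPan3+/+ cells, a difference of -1.003, just past 2-fold, with both values under the limits. Tnfaip6, the gene of the hyaluronan-binding protein TSG-6, had 3.11 in circPan3-/- cells and 3.10 in circPan3+/+ cells.

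Promoter sequences are shown for the 5 members that the results turn on: Tnfaip3 and Tnf, which stayed above the control limit on both arrays, and Tnfrsf1b, Tnfaip8l2 and Tnfrsf12a, which were lower in circPan3-/- cells and passed the highest background row in circPan3+/+ cells. Each is RefSeq sequence of GRCm38.p6 from 250 bases before to 50 after the start of the gene, and the first of 2 listed promoters was taken for Tnfaip3. Capitals mark matches on either strand to the NF-kB consensus, to TGANTCA, which AP-1 binds, or to GAGGAA, a core of ETS-family sites such as that of PU.1, and matches in these sequences did not overlap.
Tnfaip3, chr10:19015361-19015660, minus strand: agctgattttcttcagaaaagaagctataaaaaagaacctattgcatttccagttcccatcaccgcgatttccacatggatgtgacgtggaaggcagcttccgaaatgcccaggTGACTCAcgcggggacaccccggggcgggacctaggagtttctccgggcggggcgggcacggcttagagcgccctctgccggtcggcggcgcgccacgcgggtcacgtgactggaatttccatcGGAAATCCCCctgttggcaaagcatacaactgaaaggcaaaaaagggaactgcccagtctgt
Tnf, chr17:35201958-35202257, minus strand: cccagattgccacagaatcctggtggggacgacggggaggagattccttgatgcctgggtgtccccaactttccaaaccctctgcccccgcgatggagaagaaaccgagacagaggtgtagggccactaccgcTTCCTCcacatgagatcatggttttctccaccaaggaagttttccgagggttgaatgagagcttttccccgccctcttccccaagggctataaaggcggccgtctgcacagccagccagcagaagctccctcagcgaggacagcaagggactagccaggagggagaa
Tnfrsf1b, chr4:145246821-145247120, minus strand: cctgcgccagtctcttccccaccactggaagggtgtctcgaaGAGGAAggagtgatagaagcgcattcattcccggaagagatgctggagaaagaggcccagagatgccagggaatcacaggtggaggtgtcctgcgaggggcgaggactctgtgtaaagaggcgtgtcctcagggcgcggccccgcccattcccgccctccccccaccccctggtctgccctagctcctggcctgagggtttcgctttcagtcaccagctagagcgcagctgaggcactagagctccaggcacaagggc
Tnfaip8l2, chr3:95142305-95142604, minus strand: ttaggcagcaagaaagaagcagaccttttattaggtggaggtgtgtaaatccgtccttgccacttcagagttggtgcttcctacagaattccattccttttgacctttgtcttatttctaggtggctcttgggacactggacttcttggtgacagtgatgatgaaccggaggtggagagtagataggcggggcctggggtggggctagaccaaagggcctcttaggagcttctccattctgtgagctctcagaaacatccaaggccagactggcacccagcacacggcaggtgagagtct
Tnfrsf12a, chr17:23677400-23677699, minus strand: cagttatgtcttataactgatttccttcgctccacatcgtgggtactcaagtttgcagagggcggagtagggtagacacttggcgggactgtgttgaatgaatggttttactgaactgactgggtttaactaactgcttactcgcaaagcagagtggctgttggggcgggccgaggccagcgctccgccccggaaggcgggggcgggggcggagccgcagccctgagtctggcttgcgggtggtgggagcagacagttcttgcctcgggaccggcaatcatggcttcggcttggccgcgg

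The Tnfaip3 window held 1 match to the NF-kB consensus as searched, starting 12 bases before the gene start, and 1 TGANTCA match. Other forms of the NF-kB consensus were not counted, so unmarked stretches may match one of those. The windows of Tnf and Tnfrsf1b each held 1 GAGGAA match, and those of Tnfaip8l2 and Tnfrsf12a held 0 matches to the 3 motifs. For 31 of the 38 members RefSeq promoters were matched, 36 in all. The NF-kB consensus was in 5 of these 36 windows, against 5.80% of all 32851 promoters of this length. TGANTCA was in 7 of 36, against 7.81%, and GAGGAA in 12 of 36, against 28.3%. A match is a run of letters and not a binding site, and a window without one says nothing of the factor. Of the 5 members with the NF-kB consensus, Tnfaip2 differed by -1.003, Tnfrsf9 by -0.33, Tnfrsf25 by 0.34, Tnfaip3 by 0.48 and Tnfrsf8 by 0.64, so they did not share a direction.

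Downstream of the receptors, the signalling genes were close to the median of all genes. Of 20 adaptors and complex subunits measured, 1 was at least 2-fold higher as deposited, Birc2, the gene of the ubiquitin ligase cIAP1, at 5.13 in circPan3-/- cells and 3.87 in circPan3+/+ cells, both under the limits. The list had 0 members at least 2-fold lower and a median difference of 0.26. Above the limit on both arrays were Tab2, Traf4 and Birc3, which differed by 0.69, 0.63 and 0.095; relative to the median of all named genes, Birc3 differed by -0.18. Map3k7, the gene of the kinase TAK1, had 5.53 in circPan3-/- cells and 5.07 in circPan3+/+ cells. Although higher in circPan3-/- cells, it passed the limit in circPan3+/+ cells alone, because the circPan3-/- limit is the higher one. Of 7 genes of the cell death arm, 5 were above the limit on both arrays and 0 were at least 2-fold apart. Casp8, the initiator caspase, had 7.48 in circPan3-/- cells and 7.02 in circPan3+/+ cells, and Ripk3, the necroptosis kinase gene, had 6.01 in circPan3-/- cells and 5.68 in circPan3+/+ cells.

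Feedback inhibitors of the pathway had a median difference of 0.34, near that of all named genes. Of these 10 negative regulators, Nfkbia alone was at least 2-fold apart. Nfkbia encodes the NF-kB inhibitor IkBa and had 8.94 in circPan3-/- cells and 7.07 in circPan3+/+ cells, which is 3.64-fold higher. Among 6 genes of NF-kB subunits and their nuclear partners, Nfkbiz had 6.74 in circPan3-/- cells and 5.22 in circPan3+/+ cells, or 2.87-fold, and Rela, the main activating subunit, had 7.52 in circPan3-/- cells and 7.46 in circPan3+/+ cells. Of 9 genes that act on Tnf mRNA or on ligand shedding, Zfp36 was at least 2-fold higher. Zfp36 encodes tristetraprolin, which promotes decay of Tnf mRNA, and had 7.01 in circPan3-/- cells and 5.71 in circPan3+/+ cells, or 2.47-fold. Adam17, the sheddase of TNF, had 4.69 in circPan3-/- cells and 5.03 in circPan3+/+ cells, both under the limits. Nfkbia, Nfkbiz and Zfp36 are also immediate early genes in many cells. Of 15 immediate early genes measured, 11 were at least 2-fold higher in circPan3-/- cells, with a median of 1.71. Among all named genes, 7.47% were at least 2-fold higher. The part of the immediate early genes in the differences of Nfkbia, Nfkbiz and Zfp36 was not tested.

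Of 20 target genes of NF-kB, 7 were at least 2-fold lower in circPan3-/- cells and 1 at least 2-fold higher. Their median difference was -0.28. Among all named genes, 2.17% were at least 2-fold lower and 7.47% higher. With bounds at the control limits, 4 of the 20 targets were at least 2-fold lower (0.395% of all named genes) and 0 higher (2.73%). The 4 were the chemokine genes Ccl2 (at least 5.71-fold) and Cxcl2 (at least 2.37-fold), the serum amyloid gene Saa3 (at least 2.41-fold) and Ptgs2, which encodes a prostaglandin synthase and was above the limit on both arrays at 6.36 in circPan3-/- cells and 7.77 in circPan3+/+ cells, or 2.66-fold. Above the limit were 6 of the 20 targets in circPan3-/- cells (18.3% of all named genes) and 14 in circPan3+/+ cells (19.4%). Targets above the limit on both arrays without a 2-fold difference included Il1b, which encodes a cytokine chiefly of myeloid cells, at -0.12, Ier3 at 0.21 and Gadd45b at 0.10. Myeloid cells also express many of these targets, and the part of the myeloid difference in them was not tested.

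**Figure D4:**
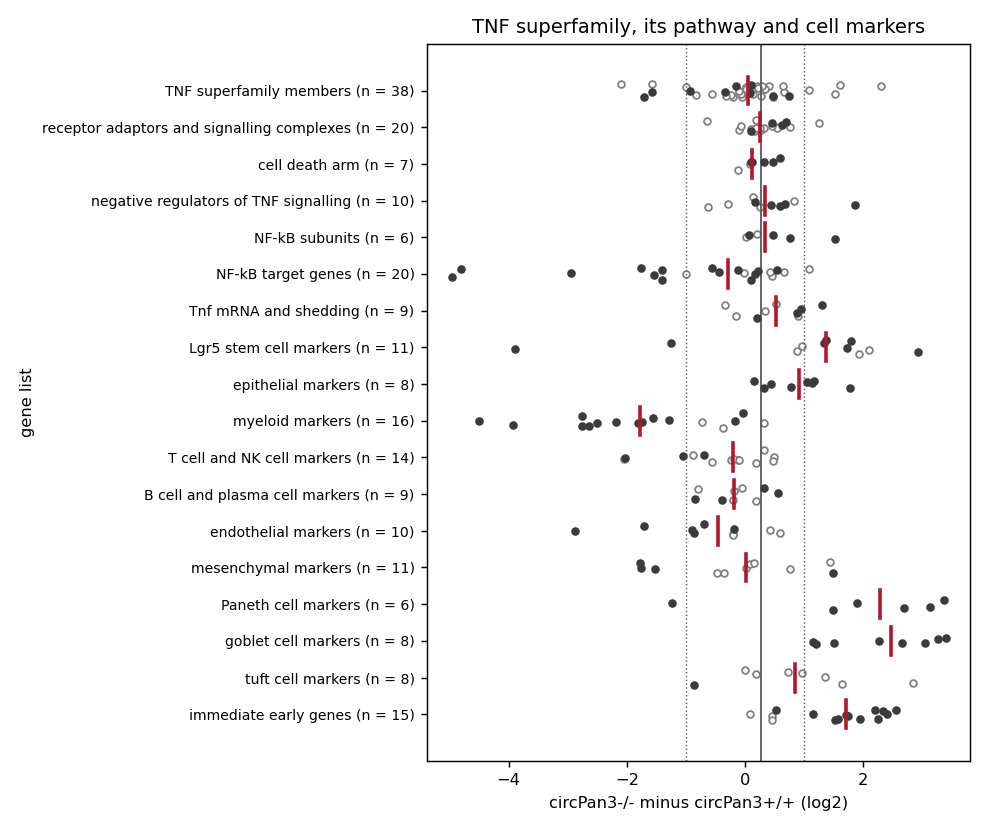
Difference between the arrays (circPan3-/- minus circPan3+/+, log2, x axis) for each gene of the superfamily, of its pathway lists and of cell markers; filled points were above the control limit on at least 1 array and red bars are list medians. The solid line is the median of all named genes, 0.28, and dotted lines mark 2-fold; the members have a median of 0.05 and the myeloid markers of -1.78.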

How the data were processed

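RNA levels were measured in 2 samples, 1 per genotype. The deposited table holds 72688 rows of log2 values, made with Affymetrix Power Tools and RMA per the submitters' processing notes; the sources used here give no versions or build, and the log base was taken from the range, -0.18 to 13.07. Plain RMA does not correct for GC content. Having 2 arrays limits the precision.

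Rows were named from the platform annotation, with older names updated through the RefSeq gene table; 31280 rows had 1 gene and 1470 several. Background counts used 19760 named genes, without predicted models, long noncoding and small RNAs. The members and lists were chosen with earlier results of these data known. The classes of receptors (death domain, decoy and others) were drawn up after their values were seen. All members were counted, with no filter on level. Members are named in full when above the control limit on at least 1 array or among the 5 furthest apart in either direction under it, with Tnf, Tnfrsf1a, Tnfrsf1b, Tnfaip3 and Tnfrsf19 always; from other lists, up to 4 in each direction above the limit, and Birc2, Cd40, Adam17, Il1b, Ptgs2, Fcer1g and Lyz2 were added after their values were seen. A value under its array's limit was set to that limit for bounds, and no fold is given where both are under it. Some listed genes had no row of their own name and were not analysed here.

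Alternatives were centring, loess on mean level (span 0.3), quantile normalization, a 1.5-fold threshold, averaging the rows of a symbol, a filter at the median of all rows, other control limits, and genes whose circPan3+/+ value no other row shares. Code was tested on simulated differences. Python 3.11.15 with pandas 2.3.3, numpy 2.4.6, statsmodels 0.14.6 and matplotlib 3.10.9 was used.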

Additional observations from a re-analysis of the deposited data

How the results depend on the processing

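With 1 array per genotype no replicate could be left out, and no paired analysis was possible because each genotype has 1 array. The median difference of the members was 0.05 as deposited, but -0.23 after centring, after loess and after quantile normalization, and -0.055 over the 17 members whose circPan3+/+ value no other row shares; that of the ligands, 0.18, became -0.10, -0.035 and -0.039 under those 3 normalizations, which remove the shift of all named genes. The receptor median stayed below 0 under the 6 alternatives run. Counts of members at least 2-fold apart as deposited stayed within 3 to 4 higher and 5 to 7 lower, except that at 1.5-fold 7 were higher. With bounds, the count of lower members was 0 as reported, 2 after centring or quantile normalization, 3 after loess and 3 at 1.5-fold. That of higher members was 0 as reported and 1 at 1.5-fold. Of all named genes, 0.395% were lower and 2.73% higher with bounds as reported. No such share was computed for bounds under the other settings or for 1.5-fold, so those counts have no background beside them. The number of members above the limit depended most on the limit: 9 on at least 1 array as reported, 20 at the 90th percentile of negative controls, 0 at the 99th and 4 at the highest background row, a limit chosen after seeing the data. Of all named genes, 22.4%, 40.4%, 2.54% and 10.9% passed the same 4 limits. The members' counts were 5, 12, 0 and 1 on the circPan3-/- array (18.3%, 32.7%, 2.37% and 9.47% of all named genes) and 8, 17, 0 and 4 on the circPan3+/+ array (19.4%, 37.9%, 1.82% and 8.53%). Each single member moved by less than 1.5-fold under centring, loess, quantile normalization and the mean of rows.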
